A study of Mus musculus with 9 samples.

Results

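Genes for the proteins of the cytosolic ribosome were examined in mice, in 6 tumours labelled as alveolar rhabdomyosarcoma and 3 samples of wild-type skeletal muscle. A gene was taken as a member if the platform annotation gave its probe set a lone symbol that starts with Rpl or Rps and a digit. Symbols of the Rps6k kinases, of pseudogenes ending in -ps and of clones ending in rik were left out. Of 12393 genes measured, 45 were members, read by 96 probe sets. Where a gene had several, its brightest probe set by mean log2 over the 9 arrays was used. Of the 45 genes, 20 encode proteins of the large 60S subunit, 19 encode proteins of the small 40S subunit and 6 are paralogs, which are related copies of such genes. The label holds for these symbols, but the set is not the whole ribosome. A further 101 probe sets whose annotation joins a ribosomal protein gene to other genes, often pseudogenes, were not named.

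Alveolar rhabdomyosarcoma is a soft-tissue cancer whose cells express skeletal muscle genes. The labels used here give no genotype for the tumours, no name for the muscles, no age and no statement that the samples came from separate animals. The p-values therefore measure only the spread between these samples, which may in part be technical. Each Affymetrix array measured 1 sample, with total RNA as the starting material and biotin as the label. The values are MAS5 signals, a linear brightness in arbitrary units. Every array was multiplied to a common trimmed mean, since muscle 1 and muscle 3 were deposited on lower scales than the other 7 arrays. The number of arrays limits the precision.

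The ribosome joins amino acids into proteins. Its small subunit reads the mRNA, and its large subunit forms the peptide bond and holds the tunnel through which the new chain leaves. The subunits are built in the nucleolus from ribosomal RNA and many proteins, and cells that grow and divide make more of them. Most mRNAs of ribosomal proteins begin with a run of pyrimidines, the TOP sequence, through which growth signals control their translation.

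Before the results, some arrays stood apart. The hybridisation control cre averaged 28634 on tumour 1 and 23093 on tumour 4, against 4560 to 11026 on the other arrays. For Gapdh, the 3' probe set was 57.17 times as bright as the 5' probe set on muscle 2 and 33.0 times on muscle 3. This ratio, which rises as RNA degrades, was 1.68 on muscle 1 and between 1.93 and 9.39 on tumours. For Actb the ratio was 1.87, 4.06 and 4.35 on muscles 1 to 3 and between 3.35 and 6.78 on tumours. By Actb, muscles 2 and 3 thus did not stand apart from the tumours. For the marker lists below, the shares over all genes were 8.66% called higher and 9.09% called lower (limma, adjusted p under 0.05). A count of 0 or 1 in lists this short is near those shares. Adult muscle markers were lower in tumours for 11 of 12 genes, with a summed signal of 1937 to 128037 in tumours, highest on tumour 1, and 220158 to 295805 in muscles. Macrophage markers were higher for 9 of 11 genes, with a summed signal of 10120 to 40735 in tumours and 2963 to 4422 in muscles. Proliferation markers were higher for 11 of 11 genes, with sums of 18352 to 40664 and 1688 to 3733. Adipocyte markers were lower for 4 of 4 genes, with sums of 163 to 1450 in tumours and 7940 to 10155 in muscles. Endothelial markers were called lower for 1 of 8 genes, but their sums did not overlap, at 1019 to 2769 and 3481 to 3912. Fibroblast markers were lower for 1 of 8 genes, and 0 of 9 lymphocyte and 0 of 3 red cell markers were called (limma; 0 of either list at an unadjusted p under 0.05). Red cell markers nevertheless summed to 13322 on tumour 6 and 4446 on tumour 4. Their sums were 77 to 2258 on the other tumours and 470 to 1146 in muscles. No marker of these lists had a signal of 0. The part of other cell types, of division and of RNA quality in the ribosomal results was not tested. In such bulk samples fewer cells of a type and less RNA per cell cannot be told apart.

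Ribosomal protein genes held a larger share of the array signal in every tumour than in any muscle. Their summed signal was 5.77%, 3.65%, 4.22%, 5.03%, 3.22% and 2.75% of that of all genes on tumours 1 to 6, and 2.14%, 1.61% and 1.6% on muscles 1 to 3. The groups did not overlap, tumours 1 and 4 were highest, and tumour 6 lay closest to muscle 1. The mean was 4.11% ± 1.14 (SD, n = 6) in tumours and 1.78% ± 0.31 (SD, n = 3) in muscles. The share within an array does not depend on how the array was scaled. Without probe sets ending in _s_at or _x_at, which can bind several transcripts, it was 3.1% ± 0.69 (SD, n = 6) in tumours and 1.26% ± 0.26 (SD, n = 3) in muscles.

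**Figure D1:**
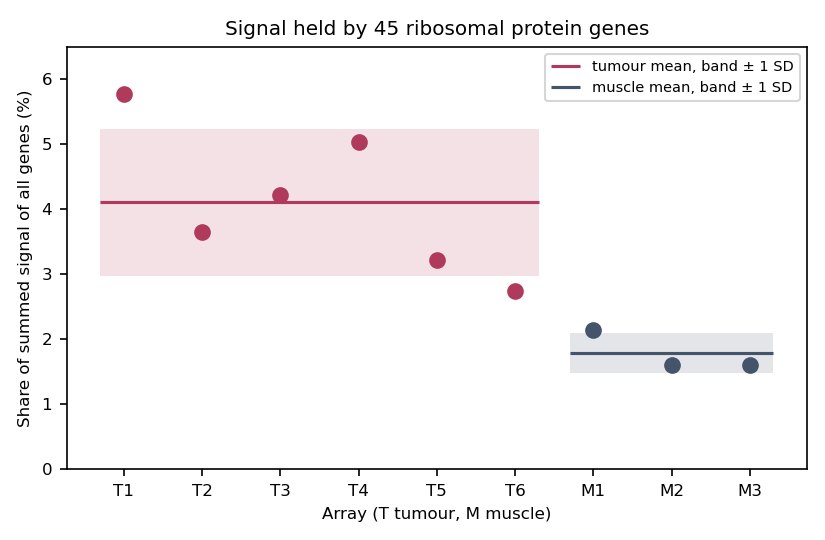
Summed signal of the 45 ribosomal protein genes as a percentage of the summed signal of all 12393 genes, for each array (T tumour, M muscle). Lines are group means and bands are 1 SD; tumours lie between 2.75% and 5.77% and muscles between 1.6% and 2.14%.

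The comparison of tumour with muscle asks how expression in the tumours differs from that of the tissue they resemble. Of the 45 genes, 13 rose in tumours, 1 fell and 31 did not pass an adjusted p of 0.05 (limma, Benjamini-Hochberg over all genes). Over all genes 8.66% were called higher and 9.09% lower. The median difference of the members was 1.07 on the scale of log2(signal + 16), against 0.10 over all genes. It lay above 0 for 41 of the 45 genes, against 6852 of 12393 genes. All 6 tumours lay above all 3 muscles for 21 of the 45 genes, where 10.7% of all genes did so, and below them for 1, where 11.0% of all genes did so. Among genes with a mean brightness at or above the median, 12 of 42 members were called higher, against 12.7% of all such genes.

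**Figure D2:**
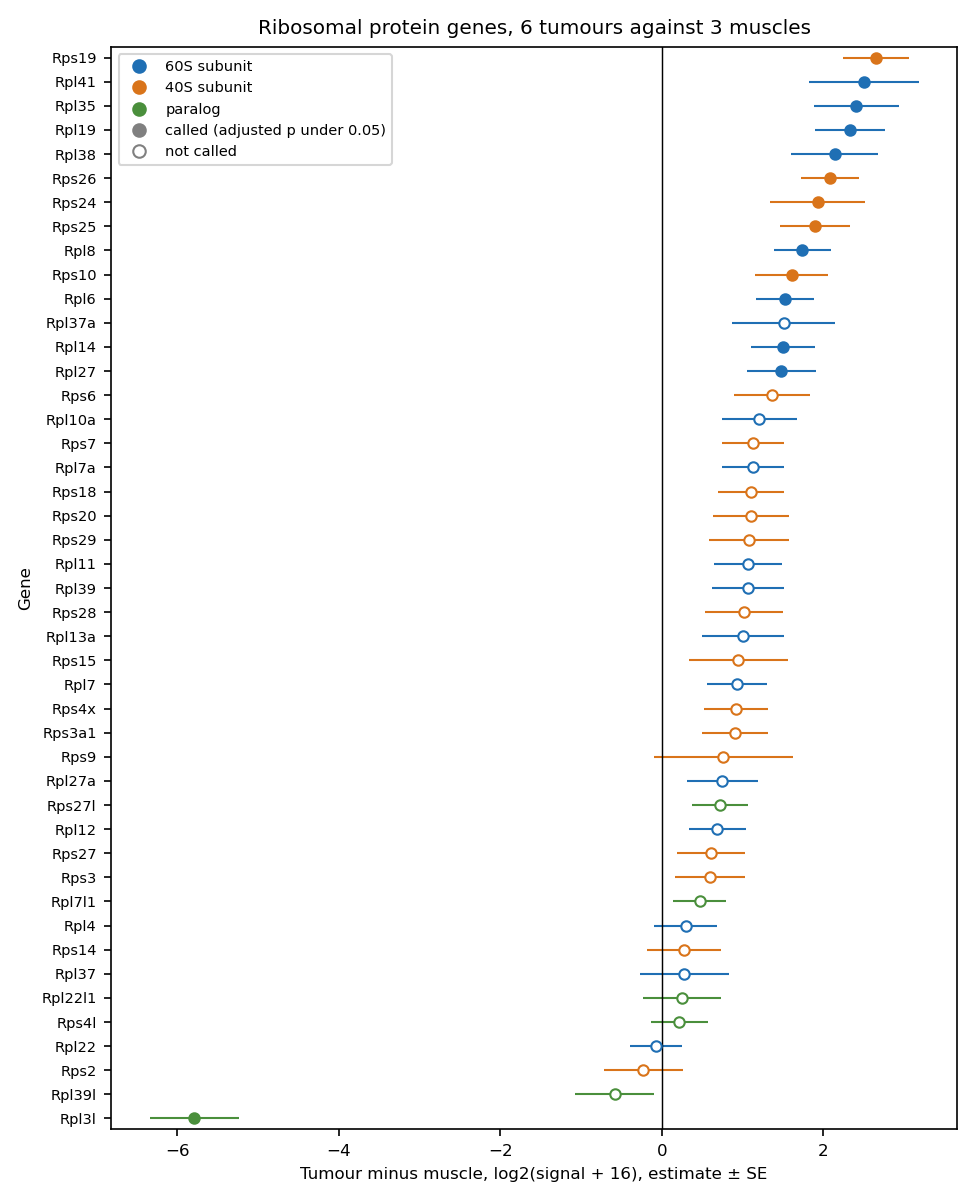
Tumour minus muscle difference of log2(signal + 16) with its standard error for each of the 45 ribosomal protein genes, coloured by subunit; filled points were called at an adjusted p under 0.05. The 13 genes called higher are all subunit genes, and the paralog Rpl3l stands apart at -5.79.

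The count of members called depended on the muscles. Without muscle 2 there were 6 members called higher (4.8% of all genes) and without muscle 3 there were 5 (4.06% of all genes). Without tumours 1 and 4 there were 18 (11.8% of all genes), with a median difference of 0.77, and with the signals as deposited there were 29 (19.1% of all genes), with a median of 1.88 against 0.79 for all genes. Rps19, Rpl19, Rps26, Rpl8 and Rpl35 were called higher, and Rpl3l lower, whichever array was left out.

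The genes of the large subunit included 8 of 20 that rose, with a median difference of 1.17, where 8.66% of all genes were called higher. Rpl19 encodes a protein that takes part in a bridge between the subunits. Its signal (probe set 1416219_at) was 23101, 8881, 11718, 11980, 10336 and 7829 in tumours 1 to 6 and 3815, 1524 and 2018 in muscles 1 to 3. The groups did not overlap, and tumour 1 stood above the other tumours. Rpl19 rose 5.04-fold on the offset scale, a log2 difference of 2.33 ± 0.43 (SE), with an adjusted p of 0.0021 (limma).

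Rpl8 encodes a protein close to the centre where the peptide bond forms. Its signal was 12930, 14216, 12696, 14262, 12765 and 9186 in tumours 1 to 6 and 3946, 3837 and 3495 in muscles 1 to 3. Tumours 1 to 5 lay close together, tumour 6 lay lower, and the muscles differed little. Rpl8 rose 3.33-fold, by 1.74 ± 0.35 on the log2 scale (adjusted p = 0.0035, limma).

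Rpl35 encodes a protein at the rim of the tunnel exit. Its signal (1434231_x_at) was 37365, 14367, 15892, 20399, 11178 and 5432 in tumours 1 to 6 and 4154, 2124 and 2436 in muscles 1 to 3. The spread among tumours was wide, with tumour 6 just above muscle 1. Rpl35 rose 5.3-fold, by 2.41 ± 0.53 (adjusted p = 0.0063, limma). Of its 6 probe sets 5 were called higher, at 2.07 to 2.47, and the dim 1454833_at differed by -0.21.

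Rpl41 encodes a very short protein, and Rpl38 one known for a part in the translation of Hox mRNAs. Rpl41 had signals of 15742, 11264, 7457, 8587, 3237 and 1770 in tumours 1 to 6 and 3231, 713 and 586 in muscles 1 to 3, so that tumour 6 lay below muscle 1. Its difference was 2.50 ± 0.68 (adjusted p = 0.02, limma), and it was not called without muscle 2 (0.11) or muscle 3 (0.14). Rpl38 had signals of 38250, 13012, 14418, 27711, 9773 and 9480 in tumours and 7180, 2729 and 2554 in muscles. It rose by 2.14 ± 0.54 (adjusted p = 0.014, limma), with groups that did not overlap and tumours 1 and 4 the highest. Both rest on probe sets ending in _x_at. Without such probe sets Rpl41 differed by 0.60 (adjusted p = 0.52, limma), while Rpl38 has no other probe set.

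The other large-subunit genes that rose were Rpl6, Rpl14 and Rpl27. Rpl6 was the most even among tumours, with signals from 10212 to 13589 against 2949 to 5525 in muscles, and a difference of 1.53 ± 0.36. Rpl14 was dim, with a mean of 351 ± 86 (SD) over the 6 tumours and 117 ± 54 (SD) over the 3 muscles, and rose by 1.5 ± 0.40. Rpl27 rose by 1.48 ± 0.43, with the lowest tumour at 4168 and the highest muscle at 4080. Of its 3 probe sets 1 was called, and its adjusted p was 0.052 without tumour 4 and 0.082 with the mean of its probe sets (limma). All 3, like Rpl38 and Rpl41, lost their calls without muscle 2 and without muscle 3.

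Of the 12 large-subunit genes that were not called, 11 differed by 0.28 to 1.51 and 1 by -0.07. Rpl11 is part of the 5S particle that binds Mdm2 when ribosome assembly is disturbed. It had signals of 4374, 4021, 4162, 9279, 2926 and 2250 in tumours 1 to 6 and 2481, 1821 and 1572 in muscles 1 to 3, a difference of 1.07 ± 0.42 (adjusted p = 0.096, limma). Tumour 6 lay below muscle 1. Rpl37a differed by 1.51 ± 0.64. Tumours 1 and 4 reached 27754 and 20981, while the other tumours lay between 3436 and 5224 and the muscles between 2136 and 4084. This value rests on a probe set ending in _x_at. The 3 probe sets of Rpl37a differed by 1.13 to 2.71, with 0 called. The largest was that of 1416217_a_at, where tumours 3 and 5, at 360 and 460, lay within the muscle range of 141 to 742. Rpl4, a tunnel protein, differed by 0.30 ± 0.39, Rpl37 by 0.28 ± 0.55 and Rpl22 by -0.07 ± 0.32. The value for Rpl22 rests on a probe set ending in _s_at. Its other probe set, 1416603_at, differed by 0.84 ± 0.55 (adjusted p = 0.38 in the fit of single probe sets, limma). A p that misses the threshold does not show that these genes were equal in the groups.

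The genes of the small subunit included 5 of 19 that rose, with a median difference of 1.08, where 8.66% of all genes were called higher. Rps19, a protein of the 40S head and the gene most often mutated in Diamond-Blackfan anaemia, had the largest rise of the 45 on the brightest probe sets over all 9 arrays; Rpl41 exceeded it without muscle 1, at 3.26 against 3.09, and without tumour 6, at 2.87 against 2.76. Its signal (1449243_a_at) was 6049, 10034, 7392, 7824, 4631 and 4397 in tumours 1 to 6 and 1897, 851 and 643 in muscles 1 to 3. Every tumour lay above every muscle, and tumour 1, the highest for many members, was not the highest here. Rps19 rose 6.27-fold, by 2.65 ± 0.41 (adjusted p = 0.00055, limma), and by 2.33 to 3.09 when 1 array was left out.

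Rps26 encodes a protein near the channel where the mRNA leaves the small subunit. Its signal (1415876_a_at) was 17890, 12636, 15432, 12359, 11413 and 12835 in tumours 1 to 6 and 2523, 4205 and 3127 in muscles 1 to 3. The tumours lay close together, and here muscle 1 was the lowest muscle. Rps26 rose 4.21-fold, by 2.08 ± 0.36 (adjusted p = 0.0014, limma).

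Rps24, Rps25 and Rps10 rose as well. Rps24 is bound to the body of the small subunit. It had signals of 14801, 5225, 4149, 18623, 5143 and 2752 in tumours 1 to 6 and 3341, 1185 and 1301 in muscles 1 to 3, a difference of 1.93 ± 0.59 (adjusted p = 0.035, limma). Tumours 1 and 4 stood above the rest and tumour 6 lay below muscle 1. The call was lost without tumour 4 (adjusted p = 0.057, limma), muscle 2 or muscle 3. It rests on 1 probe set ending in _x_at, the only 1 of its 6 to be called, over a range of 0.40 to 2.09. Without such probe sets Rps24 differed by 0.92 (adjusted p = 0.24, limma), and the mean of its probe sets gave an adjusted p of 0.065.

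Rps25, a head protein needed by some viral internal entry sites, had signals of 816, 800, 2446, 877, 1567 and 655 in tumours and 268, 373 and 204 in muscles. Tumours 3 and 5 were the highest, unlike for Rps24, and the groups did not overlap. Rps25 rose by 1.90 ± 0.43 (adjusted p = 0.007, limma), and its adjusted p was 0.056 without muscle 3.

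Rps10, a head protein at the mRNA entry side, rose by 1.61 ± 0.45 (adjusted p = 0.024, limma) on its brightest probe set, with 3144 to 14281 in tumours and 2104 to 2733 in muscles. That call was lost without any 1 of the muscles. Its 6 probe sets differed by 0.84 to 3.97 and 4 were called higher. The widest difference was that of 1416719_a_at, with signals of 6670, 3046, 3201, 9414, 2193 and 2045 in tumours 1 to 6 and 382, 135 and 214 in muscles 1 to 3.

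**Figure D3:**
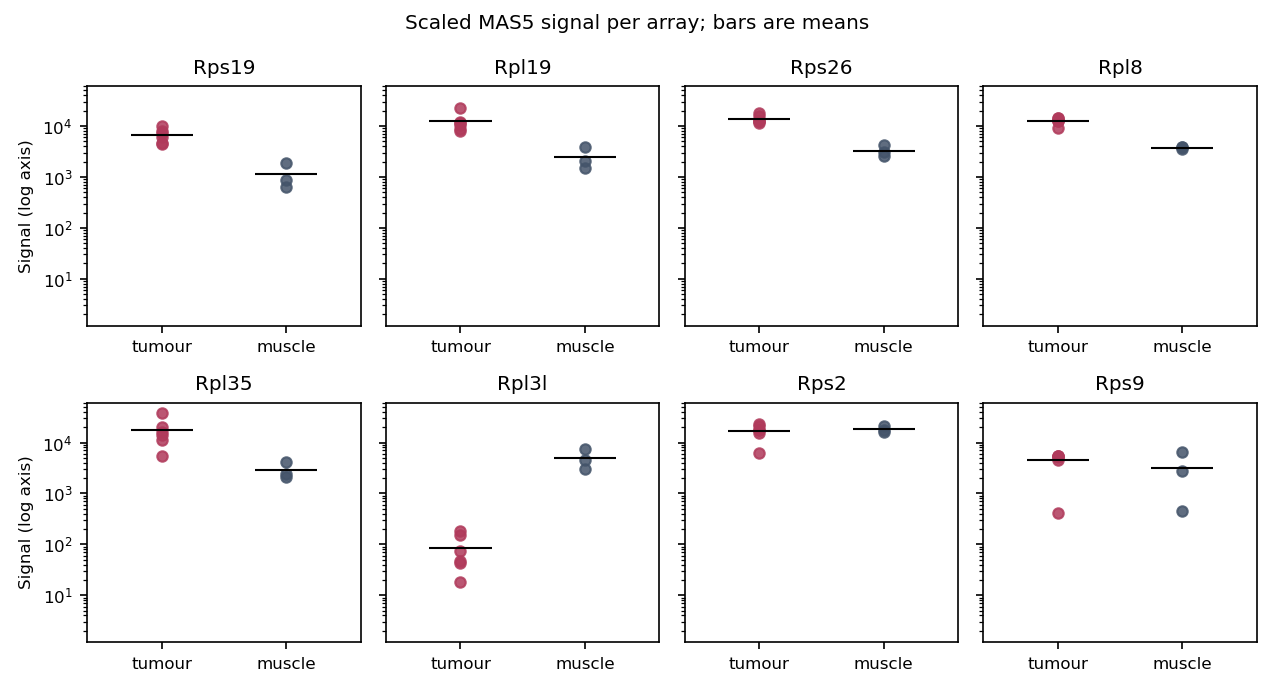
Scaled signal of each array (log axis) for 8 ribosomal protein genes; points are arrays and bars are group means. Tumours and muscles do not overlap for Rps19, Rpl19, Rps26, Rpl8, Rpl35 and Rpl3l but do for Rps2 and Rps9.

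Some bright small-subunit genes did not pass the test. Rps2, at the mRNA entry channel, had signals of 6236, 22933, 21315, 17376, 15245 and 17731 in tumours 1 to 6 and 16441, 17553 and 21078 in muscles 1 to 3. Apart from the low tumour 1 the groups lay together, and the difference was -0.23 ± 0.49. Rps14 differed by 0.28 ± 0.46 and Rps3 by 0.60 ± 0.43. Rps7, Rps18, Rps20, Rps3a1, Rps4x and Rps28 had tumours above all muscles but adjusted p of 0.054, 0.08, 0.13, 0.16, 0.14 and 0.17 (limma). Rps18 and Rps20 rest on probe sets ending in _x_at. Without those ending in _s_at or _x_at, Rps18 differed by 0.96 (adjusted p = 0.16, limma). Rps20 then differed by -0.13 (adjusted p = 0.91, limma), on a dim probe set.

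Proteins were also grouped by position in the subunit. Over all 39 subunit genes 13 rose (33.3%), with a median of 1.10, where 8.66% of all genes were called higher. The positions were not tested against each other. Of 14 listed head proteins 9 were measured and 3 rose, with a median of 1.10, and of 17 symbols listed for the body and platform 10 were measured and 2 rose, with a median of 0.92. Of 8 proteins listed for the rim and lining of the exit tunnel, a list that leaves out Rpl4, 4 were measured; Rpl19 and Rpl35 rose, and Rpl22 and Rpl39 were not called. Of 19 genes listed for Diamond-Blackfan anaemia, an inherited failure of red cell formation, 11 were measured, all of them subunit genes. Of the 11, 6 rose, with a median of 1.48, where 13 of 39 subunit genes and 8.66% of all genes were called higher. The 6 were Rps10, Rps19, Rps24, Rps26, Rpl27 and Rpl35. Among them, Rps10, Rps24 and Rpl27 lost the call without muscle 2 and without muscle 3.

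Of the 6 paralogs 0 were called higher and 1 lower, with 0 higher at an unadjusted p under 0.05 (limma) and a median difference of 0.24. Against 8.66% of all genes called higher and 9.09% lower, such counts in 6 genes are near those shares. Rpl3l, a copy of Rpl3 that is made mainly in skeletal muscle and heart, fell in tumours. Its signal (1449398_at) was 155, 42, 75, 181, 46 and 18 in tumours 1 to 6 and 7407, 3031 and 4573 in muscles 1 to 3. The highest tumour reached 181 and the lowest muscle 3031. The difference was -5.79 ± 0.55, a 55.3-fold fall on the offset scale (adjusted p = 2.1e-05, limma). It was -6.14 with an offset of 1 and -5.10 with an offset of 64, since the tumour signals were near the low end of the arrays. Its partner Rpl3 was read only by probe sets that name several genes and is not given here.

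The other paralogs differed by less than the test could call. Rpl22l1, the copy of Rpl22, had signals of 1967, 5694, 4329, 1743, 2331 and 1599 in tumours 1 to 6 and 4091, 2174 and 1170 in muscles 1 to 3. Tumours 2 and 3 were the highest and the groups overlapped, with a difference of 0.25 ± 0.48. Rps27l, a gene induced by p53, differed by 0.72 ± 0.35 (adjusted p = 0.19, limma), and its partner Rps27 by 0.61 ± 0.42. Rpl7l1 differed by 0.47 ± 0.33 and its partner Rpl7 by 0.93 ± 0.37. The second probe set of Rpl7l1, 1452049_at, differed by 1.18 ± 0.46 (adjusted p = 0.1 in the fit of single probe sets, limma). The 3 probe sets of Rpl7 differed by 0.93 to 1.2. Rps4l had signals from 5 to 30 in tumours and from 8 to 10 in muscles, with a difference of 0.22 ± 0.35, while its partner Rps4x differed by 0.92 ± 0.40. Rpl39l, with signals from 11 to 102 in tumours and from 30 to 95 in muscles, differed by -0.58 ± 0.49, and Rpl39 by 1.07 ± 0.45. Signals this low can be background.

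The tumours differed among themselves in a pattern that many members shared. Tumour 6 had the lowest tumour signal for 24 of the 45 genes (53.33%), against 12.19% of all genes. Tumour 1 had the highest for 22 (48.89%), against 37.57% of all genes. Tumours 1 and 4 were the 2 highest for 15 (33.33%), against 23.49% of all genes. Among muscles, muscle 1 was the highest for 32 of 45 (71.11%), against 41.29% of all genes. Tumours 1 and 4 had the highest cre signals, and muscle 1 and tumour 4 had the lowest 3' to 5' ratios of Gapdh and of Actb. Tumour 6 had the highest summed signal of red cell markers. The part of these traits in this pattern was not tested.

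The widest spread among tumours belonged to Rps9, Rpl37a and Rps15, with SDs of 1.47, 1.28 and 1.23 on the log2 scale, against a median SD of 0.68 over the members and 0.70 over all genes. Rps15 reached 17625 in tumour 1, while the rest of the tumours lay between 1629 and 5395 and the muscles between 1558 and 2959. Rps9 behaved differently on its brightest probe set, 1434624_x_at. There the signal was 419 in tumour 2 and 453 in muscle 1, but 4496 to 5561 in the other tumours, 6444 in muscle 2 and 2785 in muscle 3. The probe set 1433689_s_at of Rps9 did not share this, with 3489 in tumour 2 and 1865 in muscle 1, and it was called higher at 1.73 ± 0.53 (adjusted p = 0.038 in the fit of single probe sets, limma), as was the dim 1426958_at at 2.02 ± 0.49 (0.012).

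**Figure D4:**
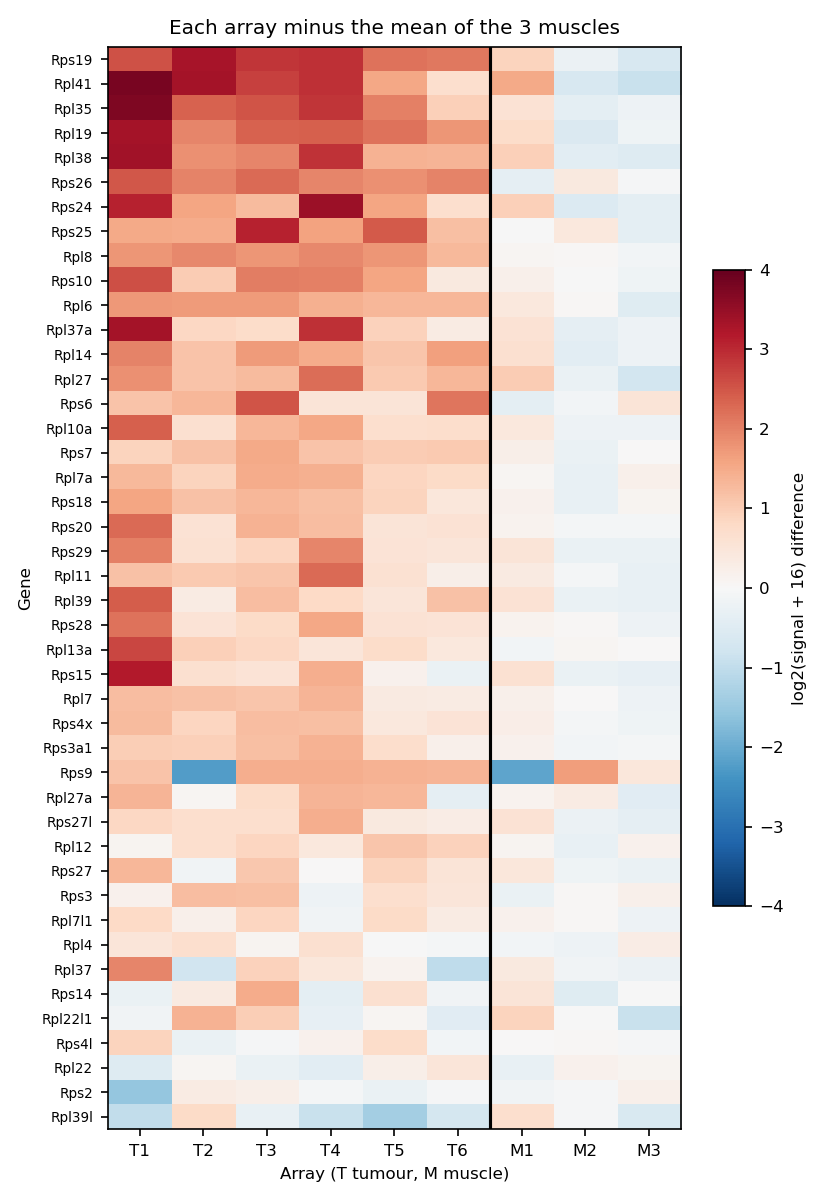
Difference of each array from the mean of the 3 muscles, in log2(signal + 16), for 44 ribosomal protein genes ordered by their mean in tumours; Rpl3l is left out because its fall exceeds the colour scale. Columns T1 and T4 hold many of the darkest reds, T6 is paler, and Rps9 is low in T2 and M1.

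Single probe sets were compared as well. Of 22 genes with several probe sets, none had probe sets called in both directions (limma over 20481 probe sets). The brightest probe set of Rpl13a, which helps to silence inflammatory mRNAs once released from the ribosome, differed by 1.01 ± 0.51 and was not called. Calls were made on 2 of the 4 for this gene, and 1433928_a_at differed by 2.76 ± 0.44. Of the 101 probe sets that name several genes with a ribosomal protein gene among them, 41 were called higher and 0 lower (8.06% of all probe sets were called higher), and 94 differed by more than 0. Many share a sequence with pseudogenes or with each other, so they are not 101 independent genes. For the same reason the level of a ribosomal protein gene is less certain than that of a gene without copies, and 16 of the 45 chosen probe sets end in _x_at or _s_at.

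The starts of the genes were read from RefSeq (GRCm38.p6) to show the pyrimidine run in some members and the start of Rpl3l, which lacks it. Of the 45 genes 39 were matched, with 47 windows of 250 bases before to 50 after an annotated start. A run of at least 8 bases that are all C or T, on the strand of the gene and reaching within 10 bases of the start, was present in 19 of 47 windows (40.4%), against 13.7% of all 32851 windows. It was present in 8 of 16 windows of genes called higher and in 11 of 31 windows of the other members. By gene, 19 of the 39 held it, and 8 of the 12 matched genes called higher. Its absence is therefore not particular to Rpl3l. The lines give 60 bases before to 20 bases after the start, 5' to 3' on the strand of the gene, with the run in capitals; for Rpl3l, which has no such run, the capitals mark CAGCTG, the E-box form bound by myogenic factors.
Rpl35 (chr2:39005112-39005191, minus strand): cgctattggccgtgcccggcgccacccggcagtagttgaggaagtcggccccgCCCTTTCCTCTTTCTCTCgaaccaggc
Rpl19 (chr11:98026864-98026943, plus strand): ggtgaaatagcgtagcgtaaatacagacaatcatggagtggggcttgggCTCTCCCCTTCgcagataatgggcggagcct
Rps26 (chr10:128626487-128626566, minus strand): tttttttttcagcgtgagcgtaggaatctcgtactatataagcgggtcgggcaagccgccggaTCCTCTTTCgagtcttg
Rps10 (chr17:27635225-27635304, minus strand): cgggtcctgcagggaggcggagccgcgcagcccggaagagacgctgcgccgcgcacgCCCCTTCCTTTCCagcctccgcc
Rpl3l (chr17:24727766-24727845, plus strand): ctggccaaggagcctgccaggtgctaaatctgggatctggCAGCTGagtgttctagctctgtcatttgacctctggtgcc

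Rpl35, Rpl19, Rps26 and Rps10 were shown because they rose and carry the run, and Rpl3l because it fell. The run printed for Rpl19 ends before the annotated start, and that for Rps26 begins after it. In these lines the run is thus not the first bases of the annotated mRNA. The other annotated start of Rpl3l has neither the run nor CAGCTG in the window. Over both strands, CAGCTG was present in 3 of 47 member windows (6.38%), against 16.3% of all windows. It is not particular to Rpl3l: Rpl35, which rose, holds it too, outside the stretch printed, and it was present in 2 of 16 windows of genes called higher and in 1 of 31 windows of the other members. CGGAAG, the core bound by ETS factors, was present in 28 of 47 (59.6%), against 16.9% of all windows, in 8 of 16 windows of genes called higher and in 20 of 31 windows of the other members. CACGTG, the E-box form bound by Myc, was present in 5 of 47 (10.6%), against 7.15% of all windows. It was in 4 of 16 windows of genes called higher and in 1 of 31 of the others. Several windows belong to the same gene. By gene, CACGTG was in 3 of 12 called higher and in 1 of 27 others. CGGAAG was in 8 of 12 and 19 of 27, and CAGCTG in 2 of 12 and 1 of 27. None of the 3 words contains another. The motifs and the limits of the run were chosen after the promoters of members had been looked at, when TATAA, a Mef2-type word and the shorter GGAAG were also searched. A match describes the letters in the window and shows no binding.

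Genes around the ribosome were read from lists. Of 6 ribosomal proteins whose symbols the rule does not cover, 4 were measured and 1 rose, where 8.66% of all genes were called higher. Fau, which encodes a small-subunit protein fused to a ubiquitin-like part, rose by 2.14 ± 0.41, from 856 ± 152 in muscles (SD, n = 3) to 4184 ± 2040 in tumours (SD, n = 6). The other 3 differed by 0.59 to 1.34 without passing.

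Of 52 genes of ribosome biogenesis 49 were measured, and 14 rose and 0 fell, with a median difference of 0.64, where 8.66% of all genes were called higher and 9.09% lower. The largest were Gar1 and Nhp2, which guide pseudouridylation of ribosomal RNA, at 2.28 ± 0.44 and 2.06 ± 0.46, and Nsa2, of large-subunit assembly, at 2.11 ± 0.56. The count higher was 5 without muscle 2 (4.8% of all genes), 4 without muscle 3 (4.06%) and 8 without muscle 1 (5.8%), and 24 with the signals as deposited (19.1%). Of 13 genes of RNA polymerase I, which transcribes ribosomal RNA, 0 were called in either direction (limma), with 1 higher and 2 lower at an unadjusted p under 0.05. Against 8.66% of all genes called higher and 9.09% lower, 0 of 13 is near those shares. With the signals as deposited 5 of the 13 were called higher, where 19.1% of all genes were. In scaled fits 2 were called higher without tumour 1, and 1 with the mean of probe sets or without those ending in _s_at or _x_at, while 1 was called lower with quantile normalization or median centring.

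Of 13 genes listed for other TOP mRNAs 5 rose, where 8.66% of all genes were called higher. The 5 included Hnrnpa1 at 1.75 ± 0.37, Vim at 1.61 ± 0.40 and Pabpc1, the poly(A)-binding protein, at 1.58 ± 0.38. The count was 2 without muscle 2 (4.8% of all genes) or muscle 3 (4.06%). It was 3 without muscle 1 (5.8%) or with median centring (6.88%). Vim also marks mesenchymal cells. Of 7 genes of translation elongation 1 fell and 0 rose, where 9.09% of all genes were called lower and 8.66% higher. Eef1a2, the form of elongation factor 1 alpha found in adult muscle and neurons, ranged from 85 to 3813 over the 6 tumours (mean 908 ± 1430, SD) and from 4335 to 6657 over the 3 muscles (mean 5681 ± 1204, SD). It differed by -3.60 ± 0.78 (adjusted p = 0.0054, limma). Eef1a1, the general form, named after its values were seen, averaged 22130 ± 3324 (SD) over the 6 tumours and 9523 ± 1093 (SD) over the 3 muscles, with a difference of 1.21 ± 0.40 and an adjusted p of 0.053 (limma).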

How the data were processed

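The authors deposited a MAS5 signal intensity, on a linear scale, for each probe set of each array. MAS5 is named in the submitters' processing notes, without a version or a target. The trimmed mean (2% at each end) was 500.2 on 7 arrays, 294.3 on muscle 1 and 140.9 on muscle 3, so all arrays were multiplied to the median. Of 22690 probe sets, 64 controls were left out and 20380 had 1 symbol. All 9 arrays were fitted together in limma 3.58.1 (R 4.3.3; lmFit, eBayes with trend, no covariates) after adding 16 to each signal and taking log2, with p-values adjusted over 12393 genes by Benjamini-Hochberg. Folds are on the offset scale. Tables used Python 3.11.15 and pandas 2.3.3. Members and lists were chosen with earlier results of these data known, so the counts are no independent support. Named with full statistics were the largest called changes, paralogs with their partners, the 5S proteins, the widest spreads among tumours and up to 3 genes per outside list. Alternatives covered scaling, offset, brightness, probe sets, spread, a rank-sum test, a replicate block and leaving out arrays.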

Additional observations from a re-analysis of the deposited data

Results flagged for a closer look

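Over the 6 tumours, 46 sets of values were examined for a sample far from the others, and 4 had one; chance marks about 1 in 20 such sets. The Rpl13a signal of tumour 1 was 54424, against 11487 to 16477 in the other tumours. The Rps2 signal of tumour 1 was 6236, below the 15245 to 22933 of the rest. The Rpl8 signal of tumour 6 was 9186, against 12696 to 14262. The Rps9 signal of tumour 2 was 419, against 4496 to 5561.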

How the results depend on the processing

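The 13 ribosomal protein genes called higher kept their direction in every fit, and Rpl3l was called lower in all but the rank-sum test. The count higher was 29 without the rescaling of 2 muscles (median 1.88), 20 of 42 without genes of below-median brightness (15.2% of all genes so tested) and 22 with a weight per group (12.8%). It ran from 5 to 16 when 1 array was left out, while all genes called ran from 1110 to 2769 around 2200. An exact two-sided rank-sum test called 0 members higher, 0 lower and 0 of all genes, since its smallest p is 0.0238 and its smallest adjusted p 0.11; at an unadjusted p under 0.05 it had 28 members higher and 1 lower. Tumours 1 to 3 against muscles 1 to 3 gave 9 members higher (3.66% of all genes) and 1089 genes called in either direction. With a replicate block on those 6 arrays, 11 members were higher (5.17% of all genes) and 1 lower (6.67%). The labels do not say whether equal numbers pair the samples. The deviations of equal numbers correlated at 0.23, 0.18 and -0.02, and tumour 3 did not correlate best with muscle 3. Such correlations cannot decide whether samples were paired. Chosen after seeing the data, a fit without muscles 2 and 3, with muscle 1 assumed to vary like the tumours, called 0 members higher (limma; 6 at an unadjusted p under 0.05) and 173 genes in all. One without muscle 1 and tumours 1 and 4 called 15 members higher (8.88% of all genes). Without probe sets ending in _s_at or _x_at, 12 of 40 members were higher (8.3% of all genes so tested). Rpl41 and Rps24 were not called there, and Rpl38 was not in that fit. Apart from what the construction of each fit shows, the cause was not tested.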
